A study of Mus musculus with 12 samples.

Results

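The 10 genes described here encode kinases and a phosphatase that set the phosphorylation of cardiac calcium handling and contractile proteins. Camk2a, Camk2b, Camk2d and Camk2g encode the isoforms of calcium/calmodulin-dependent protein kinase II (CaMKII). Prkaca, Prkar1a and Prkar2a encode a catalytic and 2 regulatory subunits of cAMP-dependent protein kinase (PKA). Ppp1ca and Ppp1cb encode catalytic subunits of protein phosphatase 1 (PP1), and Ppp1r1a encodes its inhibitor 1. The genes were chosen by name, with earlier results of these data known. All 10 were found among the 51826 entries of the gene count table, and all 10 had enough counts to be tested in every comparison.

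Expression was measured by RNA-Seq in atria and ventricles of the same 6 female FvB mice, which gave 12 libraries in 4 groups of 3. CUG960 +dox mice were homozygous for TREDT960I, a tetracycline-responsive transgene with expanded CUG repeats in human DMPK exons, and hemizygous for MHCrtTA, in which an α myosin heavy chain promoter drives the reverse tetracycline transactivator, which limits induction to cardiomyocytes. MHCrtTA +dox controls were hemizygous for the transactivator alone, so both groups carried it and both received doxycycline. Induction started at postnatal day 1 and all mice were 10 weeks old. Controls are named V327, V333 and V334 below, and mice with the repeat transgene V119, V120 and V123. RNA came from whole tissue, while the transgene is driven in cardiomyocytes. In such bulk samples, fewer cells of a type and less RNA per cell cannot be told apart.

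Libraries held 116127966 to 160676189 counts. In atria CUG960 libraries were shallower than control libraries (116127966 to 134863462 against 136770774 to 149950077 counts), and in ventricles deeper (140987828 to 160676189 against 129140369 to 133480610). Mitochondrial transcripts took 15.3% to 18.4% of the counts in CUG960 ventricles and 19.6% to 20.5% in control ventricles, and 10.9% to 12.2% in atria. The part of these differences in the results below was not tested.

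The chamber labels were checked on marker genes. The summed level of 6 atrial cardiomyocyte markers was 26300 to 28900 CPM (counts scaled to library size, with normalization over all 12 libraries) in control atria and 21700 to 23700 CPM in CUG960 atria, and 82.9 to 315 CPM in the 6 ventricular libraries. Ventricles of V123 stood apart, with 55.9 CPM of the atrial light chain gene Myl7 against 0.192 and 0.304 CPM in V119 and V120, and the ventricular calls of Ppp1r1a and Camk2g are given below with and without this mouse. Atria of V334 held 2770 CPM of erythroid marker transcripts, against 323 to 514 CPM in the other atria.

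CaMKII is a multimeric kinase that calcium-loaded calmodulin switches on. Once active, its subunits phosphorylate a threonine in the regulatory segment of their neighbors, which keeps the kinase active after calcium has fallen. PKA is held inactive by its regulatory subunits, which release the catalytic subunits when they bind cAMP, the product of adenylyl cyclases downstream of β-adrenergic receptors. In cardiomyocytes both kinases act on phospholamban and on the ryanodine receptor, and PP1 removes these phosphates. Inhibitor 1 blocks PP1 after PKA has phosphorylated it on a threonine, which links the kinase to the phosphatase. CaMKIIδ is the main cardiac isoform, and CaMKIIα and CaMKIIβ are best known from brain.

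The isoforms of CaMKII are encoded by related sequences, and this bears on whether reads can be assigned to a single gene. The stretches below are shown because they hold the codon of the threonine that CaMKII subunits phosphorylate in each other, in capitals, and because they show how far the genes differ around it. They were read from GENCODE M21 transcripts, 5′ to 3′ on the coding strand, and each lies within a single coding exon of the GRCm38 genome, Camk2b at chr11:5988967-5989029 on the minus strand, Camk2d at chr3:126797711-126797773 on the plus strand and Camk2g at chr14:20760409-20760471 on the minus strand.
Camk2b: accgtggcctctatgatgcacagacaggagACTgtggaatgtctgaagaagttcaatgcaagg
Camk2d: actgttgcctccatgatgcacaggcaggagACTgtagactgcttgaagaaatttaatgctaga
Camk2g: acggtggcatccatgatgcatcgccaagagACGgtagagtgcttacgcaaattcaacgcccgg
Of these 63 bases, 12 differed between Camk2b and Camk2d, 18 between Camk2d and Camk2g, and 20 between Camk2b and Camk2g. Camk2b as a whole lies at chr11:5969644-6066362, Camk2d at chr3:126596302-126846326 and Camk2g at chr14:20734875-20794088.

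For Ppp1r1a (chr15:103530279-103538003), the gene with the largest genotype changes of the 10, the stretch around the codon of the threonine that PKA phosphorylates (position 35 of the protein, in capitals) is shown. It spans 2 coding exons on the minus strand, chr15:103537795-103537806 and chr15:103534360-103534410.
Ppp1r1a: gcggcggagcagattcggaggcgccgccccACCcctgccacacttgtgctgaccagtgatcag

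Across whole coding sequences, pairs of CaMKII genes were 75.7% to 79.1% identical, and the longest run of bases shared by a pair was 32. Ppp1ca and Ppp1cb were 75.2% identical, with a longest shared run of 20 bases, and Prkar1a and Prkar2a were 54.1% identical. No stretch of 150 bases in the transcripts of Camk2a, Camk2b, Camk2d, Camk2g, Prkaca, Prkar1a, Prkar2a or Ppp1r1a occurred in a transcript of another gene. For Ppp1ca 2.96% of such stretches were shared with other genes, mainly Rad9a on the opposite strand, and for Ppp1cb 14.5% were shared with Gm43312, an entry on the same strand whose reads cannot be told apart from those of Ppp1cb there. The counts add all transcripts of a gene. They do not separate the splice forms of Camk2d, or the kinase from αKAP, an anchoring protein that muscle makes from the Camk2a gene.

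To compare the genes with each other, CPM were divided by exon length in kilobases. The order depends on this step. In plain CPM of control atria Ppp1cb stood above Ppp1ca, at 432 against 189, with Camk2d at 182 and Camk2g at 75.4. In control atria the order of these levels was Ppp1ca with 128 ± 2.08 CPM per kb (mean ± SD, n = 3 mice, as for all values of this kind), Prkar1a with 105 ± 4.03, Prkaca with 77.4 ± 1.89, Ppp1cb with 72.4 ± 4.36, Camk2d with 21.4 ± 0.893, Prkar2a with 19.6 ± 0.594, Camk2g with 19.4 ± 0.882, Camk2a with 8.8 ± 0.47, Ppp1r1a with 5.85 ± 0.502 and Camk2b with 4.94 ± 0.145. Of neighbors in this order, Prkaca and Ppp1cb overlapped, as did Prkar2a and Camk2g, and the others did not. In control ventricles Ppp1ca, Prkar1a, Prkaca and Ppp1cb again led, with 152 ± 10, 126 ± 2.4, 117 ± 3.44 and 81.1 ± 0.484 CPM per kb. Ppp1r1a was last there, with 1.51 ± 0.059 CPM per kb, below Camk2b with 3.65 ± 0.164. No neighbors in the order of control ventricles overlapped. In CUG960 atria Ppp1r1a stood above Camk2a, with 11.8 ± 1.6 against 9.08 ± 0.954 CPM per kb, and in CUG960 ventricles its range of 2.67 to 4.93 CPM per kb overlapped that of Camk2b, 3.52 to 4.01.

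**Figure D1:**
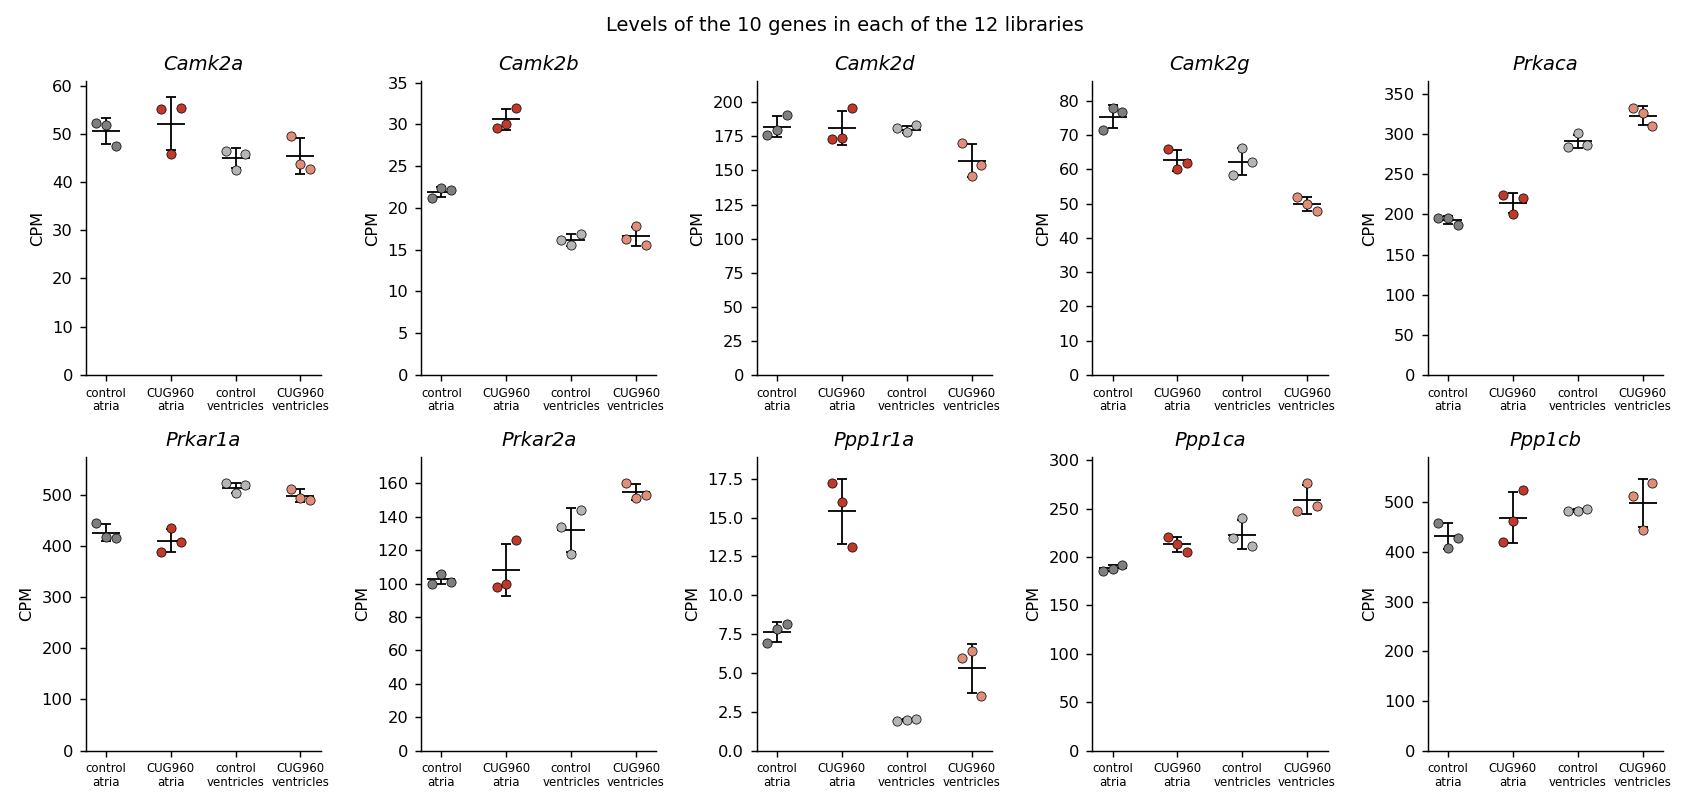
Level of each of the 10 genes in CPM (y axis, from 0, a separate scale for each gene) in control and CUG960 atria and ventricles (x axis). Points are single libraries and bars are the mean ± SD of 3 mice. Ppp1r1a in both chambers, Camk2b in atria and Camk2g in both chambers were called and did not overlap between genotypes. Prkaca and Ppp1ca in both chambers and Camk2d and Prkar2a in ventricles did not overlap either but were not called, and in all other cases the genotypes overlapped. The share of all genes without overlap is not given, and lack of overlap alone was not read as a change.

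The first question was which of these genes changed with the repeat RNA. In atria 3 of the 10 passed the threshold, an adjusted p under 0.05 in edgeR (quasi-likelihood test, p-values adjusted by Benjamini-Hochberg over all genes tested). Ppp1r1a and Camk2b rose and Camk2g fell. In ventricles 2 of 10 passed, with Ppp1r1a higher and Camk2g lower. Of all genes tested 14.6% were called in atria (7.95% higher, 6.62% lower) and 9.94% in ventricles (5.73% higher, 4.2% lower). With 10 genes, a single gene moves such a share by 10 percentage points, and nothing particular to the group was read from these counts. Where genotypes are said not to overlap, the share of all genes without overlap is not given. Lack of overlap alone was not read as a change. A fold change of at least 1.5 was passed by Ppp1r1a alone of the 10 in each chamber, against 5.49% of all genes in atria and 4.75% in ventricles. The median log2 fold change of the 10 genes was 0.0934 in atria and 0.0407 in ventricles, and that of all genes tested was −0.00883 and −0.00945.

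Ppp1r1a had the largest changes of the 10. In atria its levels were 6.91, 7.85 and 8.17 CPM in controls and 17.2, 16 and 13.1 CPM in CUG960 +dox mice. Every CUG960 library was above every control library. The fold change was 2.02, or 1.01 ± 0.12 on the log2 scale (± SE, adjusted p = 0.0016 by edgeR), and the call held with each mouse left out in turn (adjusted p between 0.0019 and 0.011). In ventricles the levels were 1.91, 1.94 and 2.05 CPM in controls and 5.98, 6.44 and 3.49 CPM in CUG960 +dox mice. The groups again did not overlap, and V123 was the lowest of the CUG960 libraries. The fold change was 2.7, or 1.43 ± 0.22 on the log2 scale (adjusted p = 0.0042 by edgeR), and 1.66 without V123 (adjusted p = 0.00048). The ventricular values rested on 204 to 230 counts per control library and 436 to 889 per CUG960 library.

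Since Ppp1r1a was a gene of higher level in atria, atrial markers were read beside its change. Of the 6 atrial markers, Nppa was called higher in CUG960 ventricles (log2 fold change 1.3) and Bmp10 lower (−4.06). In CUG960 atria Nppa (−0.42, adjusted p = 0.0083 by edgeR, but 0.35 when all 12 libraries shared a fit) and Gja5, a gap junction gene (−1.51, adjusted p = 0.00031), were called lower, and the summed level of the 6 was 28900, 28400 and 26300 CPM in controls and 22900, 23700 and 21700 CPM in CUG960 +dox mice. The part of this in the atrial changes of Ppp1r1a, Camk2b and Camk2g was not tested. In ventricles the summed level was 83.1, 82.9 and 160 CPM in control ventricles and 97.1, 235 and 315 CPM in V119, V120 and V123, with Nppa the most abundant. Nppa was at 86.6, 224 and 151 CPM in V119, V120 and V123, against 48.6, 54.4 and 84.8 CPM in control ventricles. Myl7 was at 0.192, 0.304 and 55.9 CPM in these mice, against 4.98 to 19.3 CPM in control ventricles. Sln was at 0.213, 0.341 and 18.5 CPM, against 2.9 to 7.84 CPM. The part of atrial transcripts in the ventricular change of Ppp1r1a was not tested.

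Camk2b rose in atria. Its levels were 21.2, 22.4 and 22.1 CPM in controls and 29.6, 30 and 32 CPM in CUG960 +dox mice, so that the groups were apart by more than their spread. The fold change was 1.4, or 0.48 ± 0.06 on the log2 scale (adjusted p = 0.0024 by edgeR), and the call held with each mouse left out (0.007 to 0.012). In ventricles the levels were 16.1, 15.5 and 16.9 CPM in controls and 16.3, 17.8 and 15.6 CPM in CUG960 +dox mice. These overlapped, with a log2 fold change of 0.04 ± 0.09 (adjusted p = 0.84 by edgeR). The difference between the chambers was tested as an interaction, taken as the ventricular minus the atrial change. For Camk2b it was −0.45 ± 0.1 on the log2 scale (adjusted p = 0.046 by edgeR), the only call among the 10 genes in a test that called 1.38% of all genes. It did not pass with the mouse as a block (adjusted p = 0.082), without the filter on low counts (0.073), or when any of the 6 mice was left out, V119, V120, V123, V327, V333 or V334 (0.082 to 0.2). With DESeq2 its adjusted p was 0.0016.

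CaMKIIβ is also a neuronal protein, and the markers of nerve cells were read beside it. Of 10 neuronal markers 5 were tested in atria, and Dbh alone was called there, and it fell. Their summed level was 18.7, 14.5 and 12.8 CPM in control atria and 13.1, 15.1 and 13.5 CPM in CUG960 atria. Uchl1 was the most abundant of them, at 9.13, 6.93 and 7.27 CPM in control atria and 9.65, 11.1 and 9.62 CPM in CUG960 atria, higher with no overlap but not called (log2 fold change 0.38, adjusted p = 0.073 by edgeR). In ventricles, where Camk2b was not called, Uchl1 rose (log2 fold change 0.83, adjusted p = 0.0086 by edgeR). Dbh (−1.48, adjusted p = 0.011) and Stmn2 (−0.49, 0.047) fell there. The median log2 fold change of the 5 neuronal markers tested in ventricles was −0.77. Chat was listed at 0 in all 12 libraries. Of 6 Schwann cell markers Mbp fell and Kcna1 rose in atria, and their summed level was 35.4, 38.9 and 41.1 CPM in controls and 31.7, 29.5 and 31.5 CPM in CUG960 +dox mice, with Mbp the most abundant.

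Camk2g fell in both chambers. In atria its levels were 71.5, 78 and 76.7 CPM in controls and 65.9, 60 and 61.9 CPM in CUG960 +dox mice, with no overlap. The log2 fold change was −0.27 ± 0.06 (1.2-fold lower, adjusted p = 0.029 by edgeR). In ventricles the levels were 58.5, 66.2 and 62.2 CPM in controls and 51.8, 50 and 47.9 CPM in CUG960 +dox mice, again with no overlap. The log2 fold change was −0.32 ± 0.08 (1.25-fold lower, adjusted p = 0.03 by edgeR). The calls were near the threshold. In atria the call was lost without V120 (adjusted p = 0.095), V333 (0.11) or V334 (0.094), and in ventricles it was lost when any of V119, V120, V123, V327, V333 or V334 was left out (0.06 to 0.11), while the direction was the same each time. Without V123 the ventricular log2 fold change was −0.29 (adjusted p = 0.11 by edgeR). The fall was of similar size in both chambers, with an interaction of −0.05 ± 0.09 on the log2 scale (adjusted p = 0.89).

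Endothelial markers in both chambers, and smooth muscle and pericyte markers in ventricles, also included genes that fell. Of 6 endothelial markers Pecam1, Cdh5, Tie1 and Tek were called lower in atria, and Pecam1, Cdh5 and Tek in ventricles. The summed endothelial level was 664, 680 and 565 CPM in control atria and 434, 487 and 447 CPM in CUG960 atria, and 852, 700 and 794 CPM in control ventricles and 588, 551 and 601 CPM in CUG960 ventricles, with Pecam1 the most abundant. Of 6 smooth muscle and pericyte markers Tagln, Myh11, Rgs5 and Kcnj8 were called lower in ventricles, with summed levels of 758, 715 and 756 CPM in controls and 573, 607 and 567 CPM in CUG960 +dox mice, while in atria none was called lower and Tagln rose. The part of these cells in the change of Camk2g was not tested. Of the remaining marker lists (ventricular and all cardiomyocytes, fibroblasts, leukocytes, skeletal muscle, adipocytes and erythroid cells), Myh6 and Pln were called higher and Hey2, Ryr2, Col1a2, Pdgfra, Ckm and Tnnt3 lower in atria, and Irx4 was called higher and Hey2, Ryr2, Plin1, Cfd and Fabp4 lower in ventricles.

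Camk2d and Camk2a did not pass the threshold in either chamber. Camk2d was at 176, 180 and 191 CPM in control atria and 173, 174 and 196 CPM in CUG960 atria, with a log2 fold change of −0.01 ± 0.07 (adjusted p = 0.94 by edgeR). In ventricles it was at 181, 178 and 183 CPM in controls and 170, 146 and 154 CPM in CUG960 +dox mice. These ventricular groups did not overlap, but the log2 fold change of −0.2 ± 0.08 had an adjusted p of 0.13. Camk2a was at 47.4 to 52.3 CPM in control atria and 45.8 to 55.4 CPM in CUG960 atria, and at 42.5 to 46.5 and 42.8 to 49.6 CPM in ventricles. Its log2 fold changes were 0.05 ± 0.09 and 0.02 ± 0.08 (adjusted p = 0.76 and 0.93 by edgeR).

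**Figure D2:**
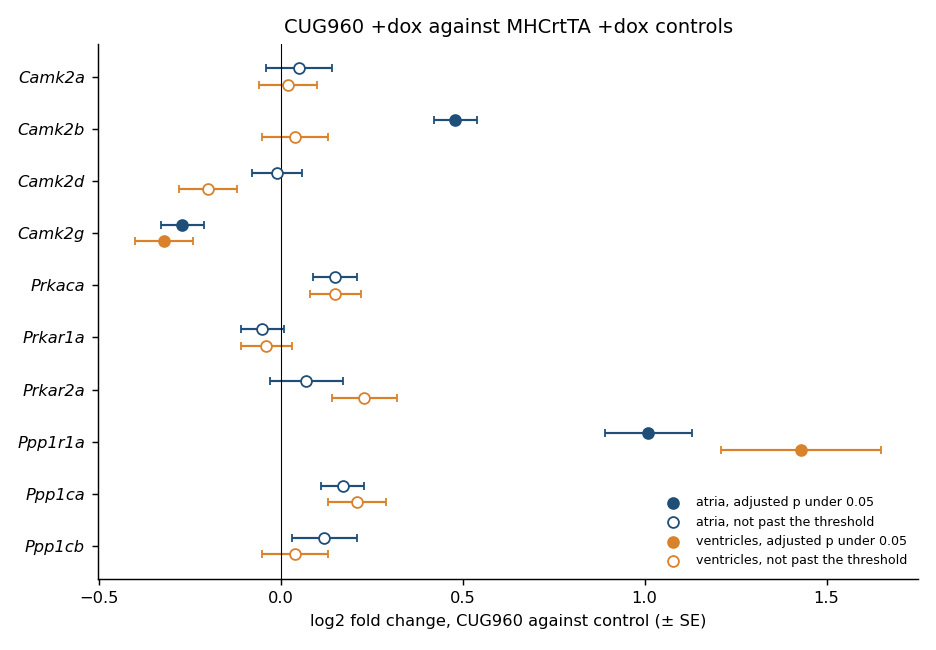
Log2 fold change of CUG960 +dox mice against MHCrtTA +dox controls (x axis) for the 10 genes (y axis) in atria (blue) and ventricles (orange), with bars of ± 1 SE from edgeR. Filled points had an adjusted p under 0.05. Ppp1r1a lay at 1.01 and 1.43, Camk2b at 0.48 in atria and 0.04 in ventricles, and Camk2g at −0.27 and −0.32.

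The 3 PKA subunits did not pass the threshold. Prkaca, the catalytic subunit, was at 195, 195 and 187 CPM in control atria and 224, 200 and 220 CPM in CUG960 atria, and at 284, 301 and 287 CPM in control ventricles and 323 ± 11.8 CPM in CUG960 ventricles, where V123 was the lowest at 310 CPM. The groups did not overlap in either chamber, and the log2 fold changes were 0.15 ± 0.06 in atria and 0.15 ± 0.07 in ventricles (adjusted p = 0.15 and 0.21 by edgeR). Prkar2a, the type II regulatory subunit, was at 134, 118 and 144 CPM in control ventricles and 160, 151 and 153 CPM in CUG960 ventricles. The groups did not overlap (log2 fold change 0.23 ± 0.09, adjusted p = 0.13). In atria Prkar2a overlapped, with V123 the highest at 126 CPM against 97.7 and 99.5 CPM in V119 and V120 (log2 fold change 0.07 ± 0.1, adjusted p = 0.69). Prkar1a, the type I regulatory subunit, was at 389 to 445 CPM in the 6 atrial libraries and 489 to 522 CPM in the 6 ventricular libraries, and its genotypes overlapped in both chambers (log2 fold change −0.05 ± 0.06 and −0.04 ± 0.07, adjusted p = 0.62 and 0.75 by edgeR).

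Of the PP1 catalytic subunits, Ppp1ca was at 186, 188 and 192 CPM in control atria and 221, 213 and 205 CPM in CUG960 atria. In ventricles it was at 220, 240 and 211 CPM in controls and 248, 276 and 253 CPM in CUG960 +dox mice. The genotypes did not overlap in either chamber, but the log2 fold changes of 0.17 ± 0.06 and 0.21 ± 0.08 did not pass the test (adjusted p = 0.082 and 0.13 by edgeR). In atria DESeq2 gave an adjusted p of 0.034, and the other fits gave 0.057 to 0.21. Ppp1cb overlapped in both chambers, at 407 to 459 CPM in control and 421 to 524 CPM in CUG960 atria and at 482 to 487 and 445 to 538 CPM in ventricles (log2 fold change 0.12 ± 0.09 and 0.04 ± 0.09, adjusted p = 0.41 and 0.8). Single libraries set this spread, V123 with the highest value in both chambers and V120 with the lowest in ventricles.

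The genes were next compared within each family. The question was how the genes make up each family within a library, which does not depend on the scaling of libraries. Camk2d took 39.2 ± 1.11% of the summed CPM per kb of the 4 CaMKII genes in control atria and 39.8 ± 1.67% in CUG960 atria, and 43.5 ± 0.739% and 42.8 ± 1.43% in ventricles (exact two-sided permutation p = 0.8 and 0.7, n = 3 against 3, where 0.1 is the smallest p possible). Camk2g took 35.6 ± 0.756% and 30.3 ± 1.56% in control and CUG960 atria and 33 ± 1.82% and 30 ± 0.827% in ventricles. Camk2b went from 9.06 ± 0.0802% to 12.9 ± 0.449% in atria and from 7.49 ± 0.305% to 8.74 ± 0.802% in ventricles. Camk2a took 16.1 ± 1.15% and 17 ± 1.12% in atria and 16.1 ± 0.841% and 18.4 ± 0.463% in ventricles. The shares of Camk2a, Camk2b and Camk2g were not tested. The size of each share rests on the exon lengths used, such as 8524 bases for Camk2d and 3880 for Camk2g. Without division by length, the share of Camk2d differed between genotypes by 0.239 percentage points in atria and −1.09 in ventricles. The summed CaMKII level was 54.6 ± 1.39 and 53.4 ± 2.56 CPM per kb in control and CUG960 atria, and 48.7 ± 0.652 and 42.9 ± 2.35 CPM per kb in ventricles, where the ranges of 48 to 49.3 and 41.4 to 45.6 did not overlap.

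**Figure D3:**
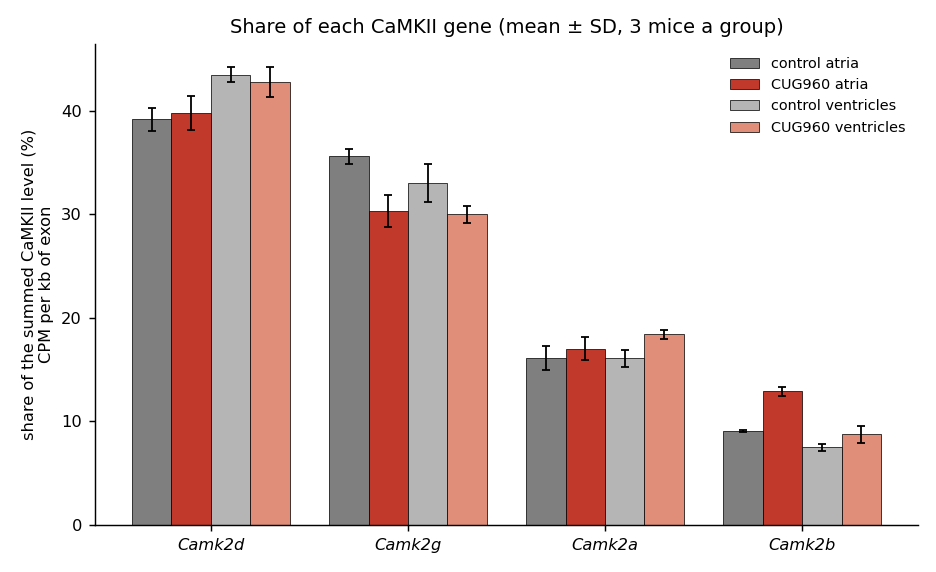
Share of each CaMKII gene in the summed CaMKII level (y axis, percent of CPM per kb of exon, from 0) in the 4 groups. Bars are means and error bars are SD over 3 mice. Camk2d was the largest share in each group, between 39.2% and 43.5%, and Camk2b the smallest, between 7.49% and 12.9%.

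For the PKA regulatory subunits, Prkar1a took 84.2 ± 0.807% of the summed CPM per kb of Prkar1a and Prkar2a in control atria and 83 ± 2.16% in CUG960 atria (exact permutation p = 0.5). In ventricles its share was 83.3%, 84.6% and 82.2% in controls and 80.4%, 80.8% and 80.4% in CUG960 +dox mice. These did not overlap, with a difference of −2.84 percentage points (exact permutation p = 0.1, the smallest possible, and 0.6 after adjustment over the 6 shares tested). Ppp1cb took 36 ± 1.58% of the summed CPM per kb of Ppp1ca and Ppp1cb in control atria and 35.2 ± 3.37% in CUG960 atria, and 34.9 ± 1.57% and 32.3 ± 3.28% in ventricles (exact permutation p = 0.9 and 0.3).

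The next question was how the genes differ between chambers of the same hearts. In controls 7 of the 10 were called, where 55.7% of all genes were, 28.3% higher in atria and 27.5% lower. In CUG960 +dox mice 7 of 10 were called, where 54.2% of all genes were, 26.7% higher in atria and 27.5% lower. These comparisons use the same libraries as those between genotypes. In both genotypes Ppp1r1a, Camk2b and Camk2g were higher in atria, and Prkaca, Prkar1a, Prkar2a and Ppp1ca were lower.

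Ppp1r1a differed most. The log2 difference of atria against ventricles was 1.95 ± 0.11 in controls and 1.53 ± 0.21 in CUG960 +dox mice, or 3.87-fold and 2.88-fold higher in atria (adjusted p = 3.1e-06 and 0.00027 by edgeR). The interaction for Ppp1r1a was 0.42 ± 0.26 (adjusted p = 0.59), so a difference between these 2 values was not shown. Camk2b was 1.35-fold higher in control atria and 1.83-fold higher in CUG960 atria (log2 difference 0.43 ± 0.07 and 0.87 ± 0.08, adjusted p = 0.00098 and 2e-05). Prkaca was 1.52-fold lower in atria in both genotypes (−0.6 ± 0.06 and −0.61 ± 0.07, adjusted p = 6.1e-05 and 0.00013). Prkar2a had a log2 difference of −0.37 ± 0.08 in controls and −0.54 ± 0.1 in CUG960 +dox mice (adjusted p = 0.0047 and 0.0017).

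The other called genes differed less between chambers. Camk2g had a log2 difference of 0.27 ± 0.07 in controls and 0.31 ± 0.07 in CUG960 +dox mice (adjusted p = 0.011 and 0.0039 by edgeR), Prkar1a −0.28 ± 0.06 and −0.29 ± 0.07 (0.0059 and 0.0081), and Ppp1ca −0.25 ± 0.07 and −0.29 ± 0.07 (0.014 and 0.0074). In controls, calls were lost for Camk2g without V327 or V334 (adjusted p = 0.053 and 0.061), for Prkar1a without V334 (0.052), for Prkar2a without V327 (0.064) and for Ppp1ca without V327 or V333 (0.096 and 0.078). In CUG960 +dox mice, calls were lost for Prkar1a without V119 or V123 (0.078 and 0.051) and for Ppp1ca without V120 or V123 (0.084 and 0.063). With the mouse as a block, the same 7 genes were called in each genotype. Camk2a (0.16 ± 0.07 and 0.19 ± 0.1), Camk2d (0.01 ± 0.06 and 0.2 ± 0.08) and Ppp1cb (−0.17 ± 0.07 and −0.1 ± 0.11) did not pass the threshold (adjusted p between 0.063 and 0.89). Other fits called some of these. Between control chambers Camk2a passed with upper quartile scaling (adjusted p = 0.039) and with a minimum of 10 counts per library (0.049). Ppp1cb passed there with DESeq2 (0.024) and with RLE size factors (0.049). Between CUG960 chambers Camk2d passed with upper quartile scaling (0.038), with the minimum of 10 counts (0.039), in a single fit of all 12 libraries (0.022) and without V119 (0.046).

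**Figure D4:**
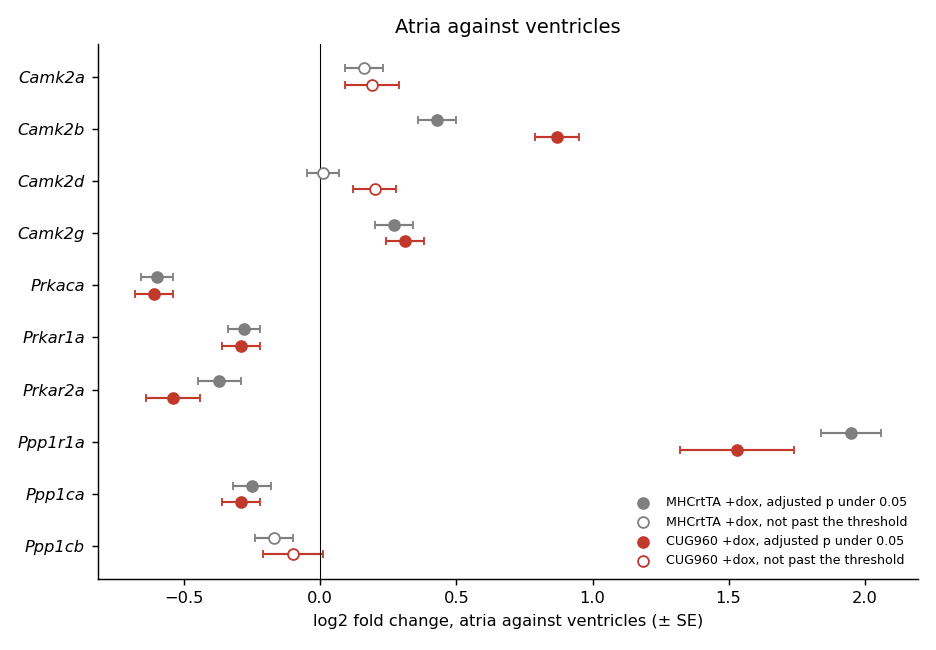
Log2 difference of atria against ventricles (x axis) for the 10 genes (y axis) in MHCrtTA +dox controls (gray) and CUG960 +dox mice (red), with bars of ± 1 SE from edgeR. Filled points had an adjusted p under 0.05. Ppp1r1a lay highest, at 1.95 and 1.53, and Prkaca lowest, at −0.6 and −0.61, and Camk2b moved from 0.43 in controls to 0.87 in CUG960 +dox mice.

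The wider pathways were described by 7 lists with 127 other genes, written with earlier results of these data known. In atria 26 of 124 tested were called (12 higher, 14 lower), or 21% of those tested beside 14.6% of all genes. In ventricles 15 of 126 were called (6 higher, 9 lower), or 11.9% beside 9.94%. With a mouse left out, 14 to 32 were called in atria and 6 to 14 in ventricles. Those fits called 6.86% to 14.3% of all genes in atria and 4.53% to 7.76% in ventricles. The median log2 fold change of these genes was −0.0148 in atria and 0.0142 in ventricles, near the medians of all genes given above.

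Of calmodulins and CaMK relatives, 2 of 12 tested were called in ventricles (both lower). Pnck, a kinase of the CaMKI family, fell in both chambers, from 7.87, 8.06 and 7.92 CPM to 4.08, 3.45 and 3.62 CPM in atria and from 5.28, 6.71 and 5.36 CPM to 1.52, 2.14 and 1.74 CPM in ventricles. No CUG960 library reached a control library (log2 fold change −1.1 ± 0.1 and −1.68 ± 0.17, adjusted p = 0.00057 and 0.00047 by edgeR). Camk1d fell by 0.46 on the log2 scale in atria (adjusted p = 0.0067, but 0.081 when all 12 libraries shared a fit), and Camk1 rose by 0.38 (0.019). Calm2, a calmodulin gene, fell in ventricles (−0.39 ± 0.09, adjusted p = 0.029). The calls of Camk1 were lost without V119, V120, V327 or V333 (0.056 to 0.066) and of Calm2 without V119, V120, V123, V327 or V333 (0.056 to 0.11).

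Of the 6 other PKA subunits and PKA inhibitors, Pkig, an inhibitor of the catalytic subunit, was called in atria, where it rose from 87.6 ± 1.19 to 110 ± 5.3 CPM (log2 fold change 0.33 ± 0.06, adjusted p = 0.0088 by edgeR). Prkar2b, a regulatory subunit, was called in ventricles, where it fell from 2.62 ± 1.05 to 1.22 ± 0.158 CPM (−1.1 ± 0.27, adjusted p = 0.035). That call was lost without V119, V120, V123, V327 or V334 (0.055 to 0.12). Of 13 A-kinase anchoring proteins, which tether PKA, Cmya5 fell in both chambers, from 771, 709 and 760 CPM to 386, 423 and 503 CPM in atria and from 651, 541 and 763 CPM to 441, 388 and 415 CPM in ventricles. The genotypes did not overlap (log2 fold change −0.77 ± 0.1 and −0.65 ± 0.12, adjusted p = 0.0024 and 0.011 by edgeR, the latter 0.053 without V120). Akap1, which holds PKA at mitochondria, rose by 0.23 ± 0.05 on the log2 scale in atria (adjusted p = 0.025, lost without V120, V327, V333 or V334 at 0.068 to 0.11). The other 11 anchoring proteins in atria and 12 in ventricles did not pass.

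Of other PP1 subunits and regulators, 4 of 32 tested were called in atria (3 higher, 1 lower). Ppp1r1b, or DARPP-32, a relative of inhibitor 1 that PKA also turns into a PP1 inhibitor, rose from 29.7, 35.5 and 38.7 CPM to 71.1, 52.7 and 66 CPM in atria. The groups did not overlap (log2 fold change 0.87 ± 0.13, adjusted p = 0.0048 by edgeR). Ppp1cc, the other PP1 catalytic gene, rose from 150 ± 2.38 to 182 ± 10.6 CPM (0.29 ± 0.06, adjusted p = 0.019, lost without V120, V327, V333 or V334 at 0.06 to 0.072). Ppp1r21 (0.25, adjusted p = 0.036) rose and Ppp1r16b (−0.49, 0.05) fell. The call of Ppp1r21 was lost without V119, V120, V123, V327, V333 or V334 (0.066 to 0.11) and that of Ppp1r16b without V119, V120, V327, V333 or V334 (0.058 to 0.16). In ventricles edgeR called 0 of 33. It put 5 of the 33 at an unadjusted p under 0.05, against 4342 of all 16909 genes tested. DESeq2 called 3 of the 33, and its share of all genes in ventricles is not given here.

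Of 19 genes of the other cardiac phosphatases PP2A and calcineurin, 4 were called in atria (3 higher, 1 lower) and 2 in ventricles (both higher). Ppp2r1b, a scaffold subunit of PP2A, rose from 7.25, 8.26 and 8.63 CPM to 12.8, 13 and 15.7 CPM in atria and from 6.47, 6.07 and 6.87 CPM to 17.2, 14.5 and 15.4 CPM in ventricles. The genotypes were far apart in both (log2 fold change 0.78 ± 0.11 and 1.28 ± 0.1, adjusted p = 0.0035 and 0.00015 by edgeR). Ppp3ca, a catalytic subunit of calcineurin, rose by 0.41 ± 0.06 in atria and 0.28 ± 0.07 in ventricles on the log2 scale (adjusted p = 0.0044 and 0.036). Ppp2r5a rose (0.3, adjusted p = 0.011) and Rcan1, a calcineurin inhibitor, fell (−0.67, adjusted p = 0.032) in atria. The ventricular call of Ppp3ca was lost without V119, V120, V123, V327 or V334 (0.069 to 0.14), and the atrial calls of Ppp2r5a without V333 (0.052) and of Rcan1 without V119, V120 or V123 (0.075 to 0.11).

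Of genes of cAMP synthesis and breakdown, 8 of 24 tested were called in atria (2 higher, 6 lower) and 6 of 25 in ventricles (2 higher, 4 lower). Adcy1, an adenylyl cyclase that calmodulin stimulates, rose in ventricles from 1.08, 1.02 and 1.64 CPM to 7.27, 11 and 6.61 CPM. All CUG960 libraries were above all controls (6.63-fold, log2 fold change 2.73 ± 0.24, adjusted p = 0.00026 by edgeR). Adcy1 rose in atria as well (0.56 ± 0.1, adjusted p = 0.012 by edgeR, 0.055 when all 12 libraries shared a fit). Adcy5, a main cardiac cyclase, rose in ventricles from 110 ± 3.55 to 147 ± 7.46 CPM (0.42 ± 0.07, adjusted p = 0.0079). In atria Gnai1, an inhibitory G protein subunit, rose (log2 fold change 0.87, adjusted p = 0.0014), and the phosphodiesterases Pde4b (−0.57, 0.0035) and Pde1a (−0.44, 0.0069) and the cyclase Adcy7 (−0.52, 0.0085) fell. The phosphodiesterase Pde2a fell in both chambers (−0.44, adjusted p = 0.026 in atria and −0.46, 0.026 in ventricles). In ventricles Pde8a (−0.61, adjusted p = 0.02) fell too, and its call was lost without V119, V120 or V334 (0.056 to 0.073). That of Pde2a was lost in ventricles without V119, V120, V327 or V334 (0.07 to 0.093) and in atria without V119, V120, V333 or V334 (0.077 to 0.1).

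Of 18 cardiac targets of these kinases and phosphatases, 3 were called in each chamber. Ryr2, the ryanodine receptor, fell in both, from 814, 758 and 796 CPM to 453, 516 and 669 CPM in atria and from 870, 650 and 945 CPM to 539, 470 and 536 CPM in ventricles. The genotypes did not overlap (log2 fold change −0.53 ± 0.13 and −0.67 ± 0.13, adjusted p = 0.03 and 0.015 by edgeR). Pln, phospholamban, rose in atria from 637 ± 68.3 to 912 ± 109 CPM (0.52 ± 0.11, adjusted p = 0.017), and Rrad, an inhibitor of calcium channels, fell there (−0.52, 0.023). In ventricles the potassium channel gene Kcnq1 (0.34, adjusted p = 0.013) and Mybpc3, cardiac myosin binding protein C (0.38, 0.044), rose. These calls were close to the threshold. In atria Ryr2 lost its call without V119, V120, V327, V333 or V334 (0.068 to 0.11), Pln without V120, V333 or V334 (0.05 to 0.067) and Rrad without V119, V123, V327 or V334 (0.061 to 0.081). In ventricles Ryr2 lost its call without V120 or V327 (0.064 and 0.058), Kcnq1 without V123 or V327 (0.054 and 0.064) and Mybpc3 without V120, V123, V327, V333 or V334 (0.075 to 0.16).

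Last, genes with the most similar pattern to the called members were sought over the 12 libraries after the mean of each chamber was subtracted, among 13064 genes. These correlations describe libraries of 2 genotypes, so that any gene that changed with genotype in the same proportions scores high. For Ppp1r1a the closest were Lrp3 (r = 0.988), Klhdc8b (0.982) and Rassf7 (0.976), and 226 genes were above 0.9. For Camk2b they were Galnt10 (0.985), Sh3rf2 (0.943) and Mapk8ip1 (0.928), with 26 genes above 0.9. Galnt10, Sh3rf2 and Mapk8ip1 had log2 fold changes of 0.98, 1.62 and 0.81 in atria and of 0.02, 0.28 and 0.03 in ventricles, beside 0.48 and 0.04 for Camk2b. For Camk2g they were Gpt (0.975), Slc44a2 (0.969) and Isyna1 (0.964), with 81 genes above 0.9.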

How the data were processed

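Per the labels and the study's methods, the authors prepared stranded poly(A) RNA-Seq libraries, aligned reads to GRCm38 (mm10), estimated expected counts per gene with RSEM 1.3.1 and deposited 1 table of whole-number counts with no scaling or filter. The strand setting of the counting is not given in the sources used here. The table held 51826 entries, of which 92 repeated a symbol and were kept apart.

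Each comparison was fitted across all genes with edgeR 4.0.16 in R 4.3.3 (filterByExpr, TMM, quasi-likelihood test, Benjamini-Hochberg adjustment), and genes with an adjusted p under 0.05 were called. SE are the log2 fold change over the root of its F statistic. CPM use TMM over all 12 libraries, and levels per length use the exon union of protein-coding transcripts in GENCODE M21, a later annotation than the authors counted on. Family shares were compared by exact permutation tests. Steps were tested on simulated data. Alternatives were DESeq2 1.42.0, RLE and upper quartile scaling, no filter, a minimum of 10 counts per library, 1 fit for all 12 libraries, fold limits, a block for the mouse, and each mouse omitted in turn. Tables and figures were made with Python 3.11.15, pandas 2.3.3 and matplotlib 3.10.9.

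Atria and ventricles of the same mouse are paired. Their deviations from group means correlated at r = 0.03 to 0.135 (6 pairs), against −0.141 to 0.054 between different mice (12 pairs). No pairing exists between genotypes. The members and gene lists were chosen with earlier results of these data known. All members were named in every comparison, and of each pathway list up to 4 called genes with the smallest p and a mean of at least 1 CPM were named, except 1 result that is not reported here. For likeness, log2 CPM with a prior count of 2 were used, and the 3 closest genes were named. Cell type markers were summed over 12 lists.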

Additional observations from a re-analysis of the deposited data

Results flagged for a closer look

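Among the members, other pathway genes and cell type markers, 7 genes had a genotype effect that differed between the chambers by the interaction test of edgeR (ventricular minus atrial log2 fold change, adjusted p under 0.05). They were 7 of 200 tested (3.5%), against 1.38% of all genes tested, with 1 of 10 members, 2 of 126 other pathway genes (1.59%) and 4 of 68 markers (5.88%). The members and lists were chosen with earlier results of these data known, and nothing about the lists was read from these shares. Camk2b differed by −0.45 ± 0.1 (SE, adjusted p = 0.046), with changes of 0.48 in atria and 0.04 in ventricles. Its call was lost with the mouse as a block (0.082), without the filter on low counts (0.073) and with any mouse left out (0.082 to 0.2). Adcy1 differed by 2.17 ± 0.28 (adjusted p = 0.0023), with 0.56 in atria and 2.73 in ventricles, and remained past the threshold with the mouse as a block (0.007) and with each mouse left out (0.012 to 0.031 without V119, V120, V327 or V333, 0.0047 without V123 and 0.0059 without V334). Adcy5 differed by 0.45 ± 0.09 (adjusted p = 0.037), with −0.04 in atria and 0.42 in ventricles, and was not past it with the block (0.054) or without any of V119, V120, V123, V327, V333 or V334 (0.06 to 0.21).

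Of the markers, Bmp10 differed by −4.1 ± 0.51 (adjusted p = 0.0021), Kcna1 by −2.51 ± 0.38 (0.007), Tagln by −1.85 ± 0.4 (0.045) and Nppa by 1.72 ± 0.38 (0.049). The call of Bmp10 held with the mouse as a block (0.007) and with each mouse left out (0.0059 to 0.019). That of Kcna1 was lost without V120 (0.056). That of Tagln was lost without V119, V123, V333 or V334 (0.13 to 0.17). That of Nppa was lost without V120, V123, V327 or V333 (0.15 to 0.24) and stood at 0.05 with RLE size factors.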

How the results depend on the processing

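The calls of Ppp1r1a in both chambers and of Camk2b in atria held under DESeq2, both other scalings, both other filters, a single fit of all 12 libraries and each mouse left out. Camk2g kept its direction in both chambers under all of these, and kept its call except with mice left out. A fold change of at least 1.5 left 1 member in atria, 1 in ventricles, 2 between control chambers, 3 between CUG960 chambers and 0 for the interaction, and a log2 fold change of at least 1.5 left 0, 0, 1, 1 and 0. Of pathway genes these limits left 7 and 0 in atria and 8 and 2 in ventricles. The limit of 1.5 left 5.49% of all genes in atria and 4.75% in ventricles. The shares of all genes left between chambers are not given here. DESeq2 called 23 pathway genes in ventricles against 15 by edgeR, and 36 in atria against 26. In atria DESeq2 called 20.1% of all genes against 14.6% by edgeR, and its ventricular share is not given here. Leaving out a mouse gave 1 member called in ventricles, 4 to 6 between control chambers and 0 for the interaction, where 1 was called with all mice, and 14 to 32 pathway genes in atria and 6 to 14 in ventricles. These fits had fewer samples, and the shares of all genes they called in atria and in ventricles are given above with the pathway lists. The interaction gave 0 members without a filter and 0 with the mouse as a block. The block changed no other call among the members.

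Of the 6 differences in shares, 4 changed sign when a mouse was left out. They ran from −0.0605 to 1.54 percentage points for Camk2d in atria, −1.1 to 0.169 in ventricles, −2.04 to 0.064 for Prkar1a in atria and −2.62 to 0.745 for Ppp1cb in atria, while Prkar1a (−3.42 to −2.23) and Ppp1cb (−3.71 to −0.734) in ventricles kept theirs. Log2 values near 0 also changed sign with a mouse left out. In atria these were Camk2a (−0.01 to 0.13), Camk2d (−0.07 to 0.02) and Prkar2a (−0.06 to 0.13), in ventricles Camk2a (−0.05 to 0.05), Camk2b (−0.02 to 0.08) and Ppp1cb (−0.02 to 0.12), between control chambers Camk2d (−0.01 to 0.04, and −0.00 by DESeq2 and RLE), and in the interaction Camk2a (−0.09 to 0.06), Prkaca (−0.06 to 0.04, and 0.00 with upper quartile scaling and with at least 10 counts), Prkar1a (−0.06 to 0.06) and Ppp1ca (−0.01 to 0.11). The cause was not tested. No scaling moved the median of all genes by over 0.1. Precision rests on 3 mice a group, and ventricular Ppp1r1a had 204 to 889 counts a library.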
